A study of Mus musculus with 3 samples.

Results

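Mid-size exonic parts, at least 52 and under 400 nt long, that some long reads held and others lacked were described in 3 striated muscles of the mouse. An exonic part is a stretch of a gene's exons bounded by annotated exon ends, so a whole exon, or a piece of an exon with alternative ends, is 1 part. The libraries came from male C57BL/6 mice aged 8 weeks and were named cardiac (the apex of the heart), EDL (the whole extensor digitorum longus, a fast leg muscle) and soleus (the whole soleus, a slow calf muscle), with no treatment or engineered allele named in the labels. There was 1 library per muscle, made of cDNA selected at 5 to 10 kb and read from end to end by Iso-Seq, a long-read method; the number of mice behind a library is not stated in the labels. A consensus read merges full-length reads, each from a sequenced molecule, that were grouped as copies of the same transcript.

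A part became a member when it was in the annotation, had a length of at least 52 and under 400 nt, lay outside Ttn, Neb and Nrap, was covered by at least 10 consensus reads in at least 2 libraries, and was held by 5 to 95% of its covering consensus reads in the 3 libraries pooled. The share of a part is the percent of its covering reads that hold it. On consensus reads each group of merged molecules counts once, so this share is not the percent of molecules that hold the part. The rule gave 548 members of 27271 deposited parts, in 226 of 686 genes. Of 18846 annotated parts of this length, 10076 outside the 3 genes had enough reads; 8656 of them had a pooled share over 95%, called constant here, and 872 had one under 5%. The members were selected on their pooled shares of consensus reads, so the fact that they vary is no result. Their place in the gene and the full-length reads were not used by the rule. It set no limit on their spread over the libraries, but a difference between libraries can bring a pooled share within 5 to 95%. The pool also counts libraries with under 10 covering reads. Ank3 parts 110 and 111 were held by all 12 reads in EDL and all 15 in soleus, and by none of 6 in cardiac. Full-length reads do share the exon calls of the consensus reads they were merged into.

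A gene's exons can be joined in several ways. A cassette exon is kept or skipped whole, some exons come in pairs of which a transcript carries one, and alternative promoters give alternative first exons. A coding exon whose length is a multiple of 3 can be skipped without shifting the reading frame of the exons after it. Striated muscle is known for such choices in proteins of the contractile apparatus and the membrane skeleton, and splicing regulators of the Mbnl, Rbfox and Rbm20 kind act on many of them.

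The sequences of the exons that the results below turn on are given first, with the part in capitals and the 15 neighbouring transcript bases in lower case. They were read 5′ to 3′ from GENCODE M21 transcripts on GRCm38, the build of the deposited coordinates. Phka1 part 17 (chrX:102557096-102557272, minus strand) and Phldb1 part 22 (chr9:44701503-44701670, minus strand) are whole coding exons that differed between libraries. Mpdz part 40 (chr4:81332977-81333041, minus strand) differed too, and stands in this release only as the first exon of a transcript with no coding sequence, so that no bases precede it.
Phka1 part 17: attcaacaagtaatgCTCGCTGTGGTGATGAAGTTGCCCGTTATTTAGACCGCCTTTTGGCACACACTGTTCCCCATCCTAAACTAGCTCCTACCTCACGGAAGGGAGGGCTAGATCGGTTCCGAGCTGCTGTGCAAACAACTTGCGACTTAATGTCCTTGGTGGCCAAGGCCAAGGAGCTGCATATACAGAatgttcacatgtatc
Phldb1 part 22: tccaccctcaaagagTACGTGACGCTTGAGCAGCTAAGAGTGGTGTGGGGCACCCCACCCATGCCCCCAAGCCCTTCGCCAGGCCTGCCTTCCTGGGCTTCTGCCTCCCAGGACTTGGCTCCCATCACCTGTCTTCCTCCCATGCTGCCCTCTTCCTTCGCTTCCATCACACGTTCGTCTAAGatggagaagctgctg
Mpdz part 40: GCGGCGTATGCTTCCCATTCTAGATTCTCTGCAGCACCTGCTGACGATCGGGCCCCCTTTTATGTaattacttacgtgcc

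Opa1 parts 9 (chr16:29588823-29588876, plus strand) and 11 (chr16:29597586-29597696, plus strand) are cassette exons of 54 and 111 nt that were kept and skipped in every library. Rbfox2 part 12 (chr15:77105577-77105669, minus strand) is a cassette exon of 93 nt in a gene for a splicing regulator.
Opa1 part 9: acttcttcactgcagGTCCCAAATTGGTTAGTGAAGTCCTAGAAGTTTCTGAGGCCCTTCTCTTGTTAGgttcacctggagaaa
Opa1 part 11: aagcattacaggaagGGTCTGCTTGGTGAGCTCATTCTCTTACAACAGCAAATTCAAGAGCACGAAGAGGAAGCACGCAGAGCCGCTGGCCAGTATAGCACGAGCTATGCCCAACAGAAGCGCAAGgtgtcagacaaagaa
Rbfox2 part 12: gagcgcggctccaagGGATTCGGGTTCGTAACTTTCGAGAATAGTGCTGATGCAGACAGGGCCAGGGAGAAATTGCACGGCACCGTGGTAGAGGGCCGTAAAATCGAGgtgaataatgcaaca

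Ide has a pair of neighbouring parts that were picked because their shares added up to 90 to 110%. Part 13 (chr19:37290044-37290188, minus strand) and part 14 (chr19:37290670-37290814, minus strand) are whole exons of 145 nt each, the former annotated in this release only in a non-coding transcript. Both flanks are the same in the 2 lines.
Ide part 13: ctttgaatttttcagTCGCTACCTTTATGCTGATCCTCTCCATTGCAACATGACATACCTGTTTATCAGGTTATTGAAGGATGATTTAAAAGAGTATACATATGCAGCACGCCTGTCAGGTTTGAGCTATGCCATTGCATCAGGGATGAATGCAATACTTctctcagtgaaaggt
Ide part 14: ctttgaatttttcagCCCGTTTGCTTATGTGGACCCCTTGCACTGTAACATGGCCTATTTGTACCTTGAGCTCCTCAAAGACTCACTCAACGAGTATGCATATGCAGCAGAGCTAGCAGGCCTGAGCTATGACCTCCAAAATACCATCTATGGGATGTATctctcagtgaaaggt

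The libraries held 17459 to 19826 consensus reads in genes. A member was covered by a median of 14 consensus reads in cardiac, 17 in EDL and 16 in soleus, against 16, 18 and 17 for constant parts. The 5 heart markers summed to 2344 reads in cardiac against 32 in EDL and 31 in soleus, and the 4 skeletal markers to 9, 736 and 411. Fast-fibre markers summed to 608 reads in EDL and 263 in soleus, and slow-fibre markers to 18 and 455. Endothelial markers summed to 58, 41 and 39 reads in cardiac, EDL and soleus, and fibroblast and matrix markers to 109, 62 and 53; the fat and nerve markers were at 0 in every library. A share is taken over all cells of a muscle, so use by more cells and more of the transcript per cell cannot be told apart.

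A larger share of the members than of the constant parts lay in first exons and outside coding sequence. A first exon held 145 of the 548 members (26.5%), against 168 of 8656 constant parts (1.94%). Whole internal exons made up 291 members (53.1%) and 7034 constant parts (81.3%). In sequence type, 313 members (57.1%) were coding and 119 (21.7%) were 5′ UTR, against 93.1% and 1.49% of constant parts. The 872 parts with a pooled share under 5% were further from constant parts in most of these traits. Of them, 380 (43.6%) lay in first exons and 101 (11.6%) were whole internal exons. Coding parts made up 5.62% of them, 5′ UTR 11.8% and parts of non-coding transcripts 68.0%, so such traits were not particular to members. These are counts over parts, many of which share genes and reads, and no test was made.

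**Figure D1:**
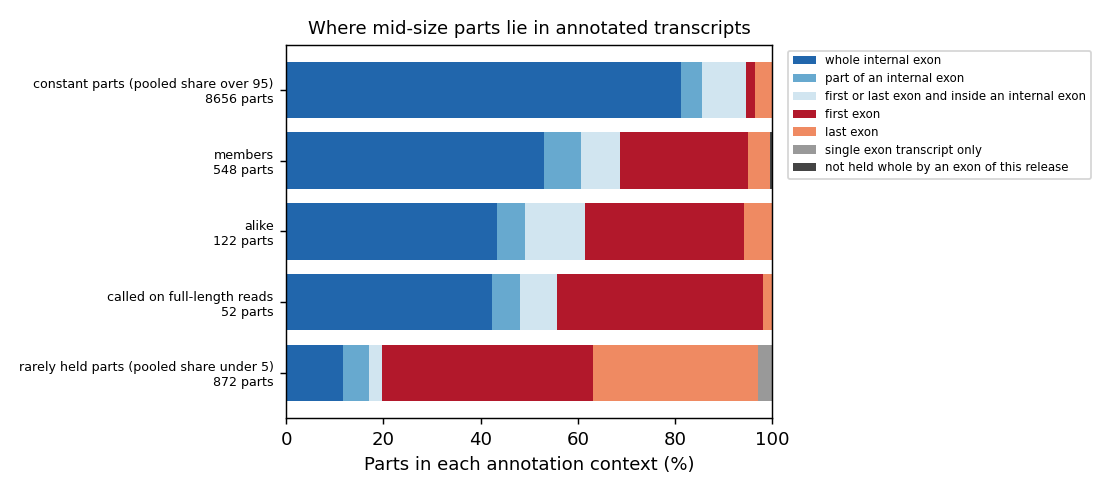
Percent of parts (x axis) in each annotation context, for parts of at least 52 and under 400 nt in 5 sets (y axis, with the number of parts). First exons, in dark red, take 1.94% of constant parts, 26.5% of members and 32.8% of the members variable alike. They take 43.6% of the parts with a pooled share under 5%.

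Among whole internal coding exons, a length that is a multiple of 3 was more frequent in members than in constant parts. It was found in 161 of 249 such members (64.7%) and in 2850 of 6923 such constant parts (41.2%). Among such parts with a pooled share under 5% it was found in 23 of 32 (71.9%), so it was not particular to members. Of the members variable alike, defined below, it was found in 31 of 43, and all 4 such exons called as different between libraries had it. The median length was 124 nt for members and 127 nt for constant parts, and the median GC content was 52.1% and 50%, so the sets were close in both.

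Whether a member differed between muscles was tested with a two-sided exact test (Fisher-Freeman-Halton) on the consensus reads holding and lacking it, over the libraries with at least 10 covering reads. P-values were adjusted by Benjamini-Hochberg over all 14469 parts of the whole table with enough reads, and a part was called when the adjusted p was under 0.05 and the shares of a pair of libraries differed by at least 20 percentage points. With 1 library per muscle, a call compares libraries and has no replicate check. The test counts consensus reads as independent draws, although each stands for a group of molecules, and this was not checked. Of all the parts tested, 167 were called (1.15%), and 7 of the 548 members were (1.28%), in 6 genes. The members' share of calls was near that of the whole table, which also holds Ttn, Neb, Nrap, unannotated parts and other lengths, so the sets are unlike. All 7 calls among the 10076 annotated parts of this length outside the 3 genes (0.0695%) were members. This follows in part from the rule, as a part that is nearly constant over the pooled reads can hardly be called. At an unadjusted p under 0.05 there were 39 members (7.12%), against 2.19% of all parts tested; a part that is nearly constant in every library can hardly reach such a p, so this gap follows in part from the rule.

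The remaining members were classed by size without a test. A member was variable alike when all 3 libraries had at least 10 covering reads, each share lay between 5 and 95%, and the shares ranged over less than 20 points; 122 members in 78 genes were in this class. A further 83 members with reads in 3 libraries and 27 with reads in 2 ranged over 20 points or more without being called. In 104 members the range was under 20 points but some share lay outside 5 to 95%, and 205 members had enough reads in 2 libraries and a range under 20 points. A range leaves out any library with under 10 covering reads, so members with reads in 2 libraries may differ in the library left out. In all, 117 members (21.4%) had a range of 20 points or more, against 2.54% of all parts tested, which the choice of variable parts raises.

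The calls in pairs of libraries were mostly between cardiac and a leg muscle. Between cardiac and EDL, 6 of 359 members with enough reads in both were called (1.67%; 1.35% of all parts in this pair). The share was higher in cardiac in 2 of them (0.135% of all parts in the pair were called that way) and in EDL in 4 (1.22%). Of these 6, 5 were also called in the test of 3 libraries; the other one, Lmo7 part 55, is described with its gene. Between cardiac and soleus, 4 of 355 members were called (1.13%; 1.1% of all parts). It was higher in cardiac in 1 (0.0857% of all parts) and in soleus in 3 (1.01%). Between EDL and soleus, 1 of 466 members was called (0.215%; 0.153% of all parts), higher in EDL (0.0161% of all parts), and none was higher in soleus (0.137% of all parts). The pairs share libraries, so their calls are not independent, and the difference between these counts was not tested. Differences of at least 20 points without a test were found in 64, 52 and 49 members of the 3 pairs. Without a test, the share was higher in cardiac in 161 members and in EDL in 189, higher in cardiac in 173 and in soleus in 172, and higher in EDL in 210 and in soleus in 229.

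**Figure D2:**
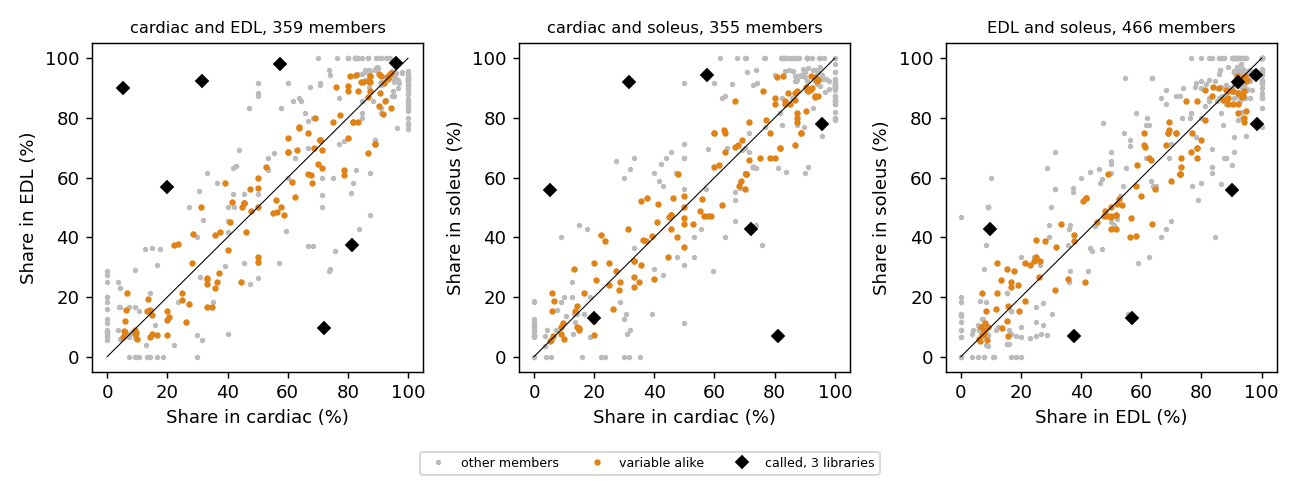
Share of covering consensus reads that hold a member (percent), in each pair of libraries with at least 10 covering reads in both; each point is 1 member, and the line marks equal shares. The 7 called members (black) lie at least 20 points from equal shares in at least 1 panel, and the 122 members variable alike (orange) lie within 20 points by their definition.

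The member with the widest range belonged to Ppp1r12b, the targeting subunit of myosin phosphatase in striated muscle, the enzyme that removes phosphate from myosin light chains. Its part 9 (135 nt, chr1:134765943-134766077), partly coding and in some transcripts within the last exon, was held by 1 of 19 covering reads in cardiac (5.26%), 27 of 30 in EDL (90%) and 29 of 52 in soleus (55.8%). Its share was thus low in the heart, intermediate in soleus and high in EDL. The exact test gave an adjusted p of 4.5e-07. The EDL share was higher than the cardiac share by 84.7 points (95% Newcombe interval 59.8 to 92.6; exact test, adjusted p = 1.89e-07), and the soleus share was 50.5 points higher than the cardiac share (26.9 to 63.9; adjusted p = 0.00861). EDL and soleus differed by 34.2 points (14.1 to 49.2) with an adjusted p of 0.642, so this pair was not called. Full-length reads gave 2.38, 91.7 and 55.7%. Of the 11 members in this gene, 3 others were variable alike.

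Phka1, on the X chromosome, encodes the alpha subunit of phosphorylase kinase in muscle, an enzyme that turns on glycogen breakdown; in the rabbit, a shorter form of this subunit is known from slow muscle and heart. Its part 17, the coding cassette exon of 177 nt shown above, was held by 6 of 30 reads in cardiac (20%), 84 of 148 in EDL (56.8%) and 6 of 46 in soleus (13.04%). Cardiac and soleus were both low, and EDL stood above them (adjusted p = 8.06e-07, exact test). It was the one member called between EDL and soleus, with a difference of 43.7 points (28.7 to 54.1; exact test, adjusted p = 6.53e-05), and EDL exceeded cardiac by 36.8 points (17.7 to 49.8; adjusted p = 0.0188). Cardiac and soleus differed by 6.96 points, with an interval from -9.46 to 25.6, which leaves room for differences in either direction. Full-length reads gave 15, 56.5 and 5.13%. The soleus library held fast-fibre marker reads too, and their part in its share was not tested.

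Svil encodes supervillin, a membrane-bound protein that binds actin and myosin and sits at costameres, the links between the contractile apparatus and the muscle cell membrane. It was the only gene with 2 calls, both of them whole coding exons on chromosome 18 (no sequence is shown). Part 24 (165 nt) was held by 39 of 68 reads in cardiac (57.4%), 52 of 53 in EDL (98.1%) and 52 of 55 in soleus (94.5%), so nearly all skeletal reads had it and the heart skipped it often (adjusted p = 3.44e-08, exact test). Part 30 (96 nt) was held by 70 of 73 reads in cardiac (95.9%), 63 of 64 in EDL (98.4%) and 57 of 73 in soleus (78.1%). Here soleus was the low library (adjusted p = 0.0037, exact test), but no pair was called: the adjusted p was 0.178 for soleus with cardiac and 0.105 with EDL. The range of part 30 was 20.4 points on consensus reads and 10.4 on full-length reads, which is under the limit for a call.

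Phldb1, a phosphoinositide-binding protein with a pleckstrin-homology domain, showed the opposite order to Ppp1r12b. Its part 22, the coding cassette exon of 168 nt shown above, was held by 31 of 43 reads in cardiac (72.1%), 2 of 21 in EDL (9.52%) and 9 of 21 in soleus (42.9%), so the heart held it most (adjusted p = 0.000544, exact test). Cardiac exceeded EDL by 62.6 points (38.2 to 75.7; exact test, adjusted p = 0.000194), while soleus was called against neither (adjusted p = 1 in both pairs). The neighbouring part 21 (125 nt) had the same order of shares, 83.7, 42.9 and 61.9%, with an adjusted p of 0.229.

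Mpdz encodes a scaffold with many PDZ domains found at cell junctions. Its part 40 of 65 nt was held by 6 of 19 reads in cardiac (31.6%), 24 of 26 in EDL (92.3%) and 23 of 25 in soleus (92.0%), low in the heart and high in both leg muscles (adjusted p = 0.000171, exact test). The difference from cardiac was 60.7 points in EDL (32.9 to 77.9; exact test, adjusted p = 0.0038) and 60.4 points in soleus (32.3 to 77.6; adjusted p = 0.00486). The share in EDL minus that in soleus was 0.308 points (-17.1 to 18.2). Parts 33 and 34 of the same gene were variable alike.

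Amotl1, an angiomotin relative at cell junctions that binds the co-activator YAP, differed in a first exon. Its part 18 (267 nt, chr9:14614734-14615000), partly coding, was held by 13 of 16 reads in cardiac (81.2%), 12 of 32 in EDL (37.5%) and 3 of 43 in soleus (6.98%), falling in that order (adjusted p = 6.9e-06, exact test). Cardiac exceeded soleus by 74.3 points (47.4 to 87.3; exact test, adjusted p = 7.47e-06); EDL was called against neither, with adjusted p of 0.379 against cardiac and 1 against soleus. Full-length reads gave 88.5, 51.9 and 1.86%. Endothelial marker reads numbered 39 to 58 in the 3 libraries, and their part in this result was not tested.

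**Figure D3:**
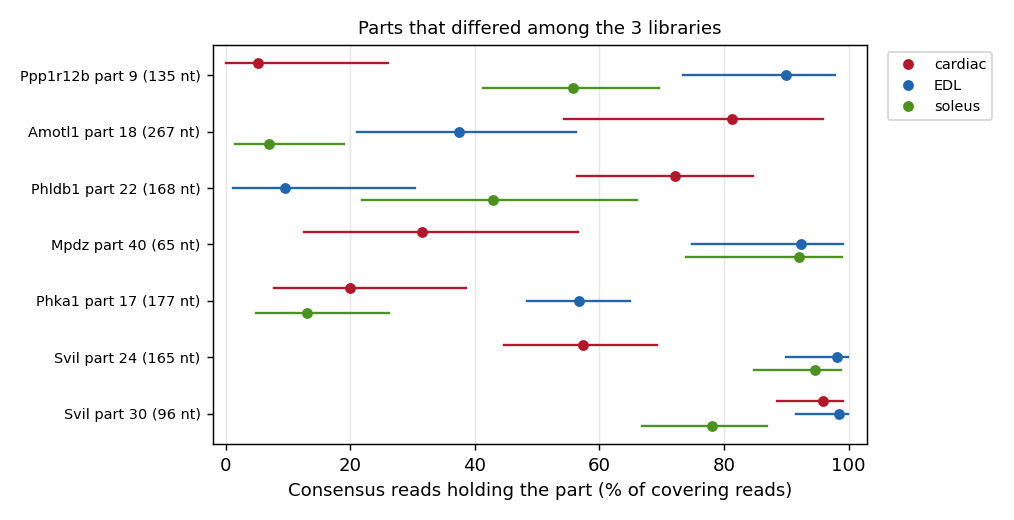
Share of covering consensus reads holding each of the 7 called members (percent, x axis) in the cardiac, EDL and soleus libraries; bars are exact Clopper-Pearson 95% intervals, which cover counting error only. Cardiac is the low library for Ppp1r12b part 9, Mpdz part 40 and Svil part 24, and the high library for Amotl1 part 18 and Phldb1 part 22.

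Full-length reads are more numerous, with a median of 2.38 to 2.78 per consensus read at a member, but all those merged into 1 consensus read carry the same exon calls, so they are not independent observations. On them, 52 members in 37 genes were called (9.49%), against 1.98% of all parts tested, which the choice of variable parts raises. Among these 52 were 6 of the 7 consensus calls, which rest on the same consensus reads. Of the 46 called on full-length reads only, 32 also had a range of 20 points or more on consensus reads. The share of a member moved between the 2 kinds of read by a median of 3.85 points in cardiac, 4.43 in EDL and 4.76 in soleus.

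**Figure D4:**
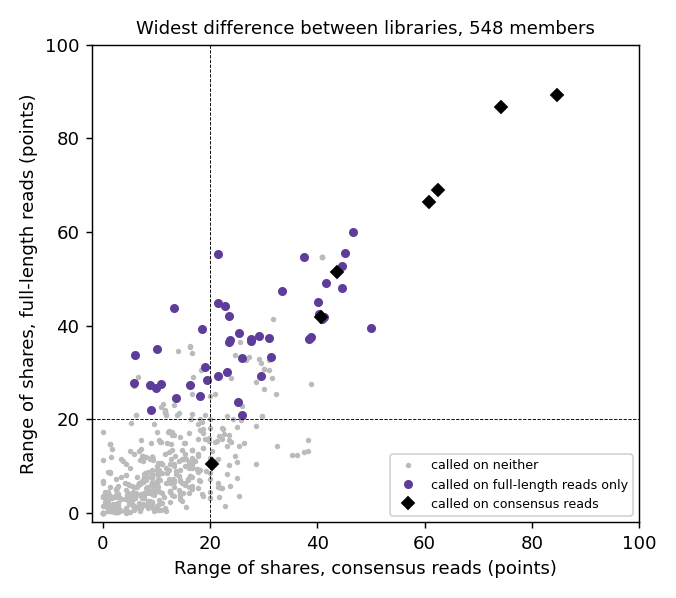
Range of shares over the libraries for each of the 548 members, in percentage points, from consensus reads (x axis) and from full-length reads (y axis); dashed lines mark 20 points. Of the 52 members called on full-length reads, 6 are also called on consensus reads.

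Several coding cassette exons had wide ranges on both kinds of read without passing on consensus reads; Map3k4, Gapvd1 and Fam135a were named after their values were seen. Part 11 of the kinase gene Map3k4 (156 nt) was held by 14 of 19 reads in cardiac (73.7%), 6 of 21 in EDL (28.6%) and 12 of 19 in soleus (63.2%) (exact test, adjusted p = 0.701). Part 48 of Gapvd1 (81 nt), which acts on the endosomal GTPase Rab5, was at 30.4, 55.6 and 14.3%, and part 25 of Fam135a (78 nt) at 73.9, 29.4 and 44.1%. All 3 were called on full-length reads. When the exact p-values were adjusted over the 1255 parts of the whole table with a pooled share of 5 to 95%, a choice made after seeing the data, 15 members were called, among them those in Fam135a (adjusted p = 0.0256) and Gapvd1 (0.0343). The share of the 1255 parts called was not computed, so the count does not compare members with other variable parts.

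Regulators of actin and microtubules held 42 members in 10 genes, of which 18 had a range of 20 points or more, 1 was called (Ppp1r12b) and 9 were variable alike. Part 74 of Clasp1 (102 nt), which binds growing microtubule ends, was held by 24 of 48 reads in cardiac (50%) and 2 of 18 in soleus (11.1%), with an adjusted p of 0.292. None of its 8 covering reads in EDL held it, too few for the test. Part 38 of Lmo7 (81 nt), a LIM-domain protein, was at 17.6, 36.1 and 42.9% in cardiac, EDL and soleus. Part 55 of Lmo7 (109 nt), a whole coding exon, was held by all 51 covering reads in cardiac, 28 of 36 in EDL (77.8%) and 38 of 42 in soleus (90.5%). It was called between cardiac and EDL, by 22.2 points (9.60 to 38.1; exact test, adjusted p = 0.0381), but not over the 3 libraries (adjusted p = 0.0656). Part 16 of the unconventional myosin Myo18a (154 nt) was at 61.8, 85.7 and 100%, and part 27 of the actin-binding Ablim1 (141 nt) at 57.9, 83.3 and 69.5%; neither passed (exact test, adjusted p = 0.273 and 1).

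The costamere and membrane skeleton list held 35 members in 8 genes; both Svil parts were its calls, 10 members ranged over 20 points or more, and 5 were variable alike. Parts 57 to 60 of Ank3, which encodes ankyrin G, lie in first exons and had equal counts: each was held by 8 of 16 reads in soleus (50%) and 1 of 11 in EDL (9.09%), with 0 of 6 in cardiac. Part 75 of Sptan1, the alpha spectrin chain (63 nt), was held by 12 of 38 reads in cardiac (31.6%), 1 of 18 in EDL and none of 14 in soleus (exact test, adjusted p = 0.597). Sarcomere genes held 59 members in 12 genes, with 1 range of 20 points or more, no call and 4 members variable alike. Calcium handling genes held 18 members in 4 genes, none with such a range and 3 variable alike.

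RNA-binding and splicing regulators held 15 members in 5 genes, with 4 ranges of 20 points or more, no call and 7 variable alike, 6 of them neighbouring parts of Sf3b1. The exon of Rbfox2 shown above was held by 14 of 16 reads in cardiac (87.5%), 9 of 19 in EDL (47.4%) and 18 of 23 in soleus (78.3%), lowest in EDL. It was not called on consensus reads (exact test, adjusted p = 1) and was on full-length reads, at 95, 50 and 76.3% (adjusted p = 0.000581). Part 2 of Rbm20, a 5′ UTR first exon of the gene for a splicing factor that acts on titin transcripts, was at 33.3, 61.5 and 66.7% (exact test, adjusted p = 1). Metabolic genes held 10 members in 6 genes, with the Phka1 call, 3 ranges of 20 points or more and 3 members variable alike. Over all 548 members the median range was 10.5 points, against 15.4 for actin and microtubule regulators and 5.06 for sarcomere genes. These medians count parts that share reads as separate members. They were not matched for share, and a share near 0 or 100% leaves less room for a range. In EDL and soleus, a run of 19 neighbouring Myh1 members lay at 91.7 to 97.2% and 1 of 9 Flnc members at 92.3 to 100%. Of the 59 sarcomere members, 26 lay in Myh1, whose members are uncertain, and 12 in Flnc.

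Members variable alike lay in first exons in 40 of 122 cases (32.8%) and were whole internal exons in 53 (43.4%). They were covered by a median of 61 consensus reads over the 3 libraries, against 101 for the called members. The precision of likeness was limited: the largest bound of a pair difference had a median of 36.0 points, and in 7 members all 3 intervals lay within 20 points. Those 7 were Clip1 part 38, Gpam part 21, Lamb2 part 7, Myo18a part 18, Usp47 part 5 and Pde4dip parts 21 and 50. On full-length reads 89 of the 122 had a range under 20 points too, and 13 were called.

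Of the 12 members variable alike with the most covering reads and every share within 10 to 90%, 10 are described. Among these, Pde4dip part 21 was the closest match between libraries. Pde4dip encodes myomegalin, a scaffold that anchors a cAMP phosphodiesterase. This coding exon of 153 nt was held by 112 of 129 reads in cardiac (86.8%), 155 of 178 in EDL (87.1%) and 218 of 253 in soleus (86.2%), and no pair interval reached beyond 8.32 points. On full-length reads the shares were 89.9, 93.8 and 91.6%.

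Coding exons of Clip1, a microtubule plus-end protein, and Opa1, the GTPase that fuses mitochondrial inner membranes, were skipped often in all 3 muscles. Clip1 part 38 (105 nt) was at 13.6, 19.4 and 15.2% in cardiac, EDL and soleus, and part 35 (228 nt) at 56.5, 48.4 and 47.0%. Opa1 part 9 was at 23.4, 37.8 and 38.6%, and part 11 at 47.8, 48.9 and 61.4%. The pair differences of the Opa1 exons could be as large as 32.3 and 31.2 points, and part 11 was called on full-length reads, at 47.3, 42.9 and 67.3% (exact test, adjusted p = 4.1e-08).

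M-band genes gave 2 of these 10. Myom1 encodes myomesin, which links myosin filaments at the M-band; its coding exon part 19 (294 nt) was held by 15 of 73 reads in cardiac (20.5%), 11 of 82 in EDL (13.4%) and 19 of 74 in soleus (25.7%). On full-length reads it was at 1.90, 2.08 and 19.5%, from 36 of 1897, 52 of 2499 and 488 of 2507 reads. Myom2 part 3 (233 nt), a first exon of a non-coding transcript of the related M-protein gene, was at 35.7, 40.6 and 52%, and was called on full-length reads at 46.1, 44.8 and 72.1%.

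The Gpam first exon had like shares on consensus reads and was called on full-length reads. Gpam encodes the mitochondrial acyltransferase that starts glycerolipid synthesis, and its 5′ UTR part 21 (123 nt) was held by 19 of 76 reads in cardiac (25%), 18 of 95 in EDL (18.9%) and 18 of 75 in soleus (24%). On full-length reads EDL was the high library, at 44.96% against 11.2% in cardiac and 11.8% in soleus. Gpam part 21, Opa1 part 11 and Myom2 part 3 were the 3 of these 10 called on full-length reads. Their likeness holds for consensus reads only. Myom1 part 19, Opa1 part 9 and Clip1 part 38 were not called there because their ranges were under the limit for a call. The exact test on full-length reads gave them adjusted p of 5.02e-135, 8.89e-07 and 0.00229. Likeness on full-length reads, which are not independent observations, is thus not shown for them either. Adgrf5 part 1 (242 nt), a 5′ UTR first exon of an adhesion receptor of endothelium, was at 62.5, 53.5 and 50.9% and was not called on either kind of read.

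**Figure D5:**
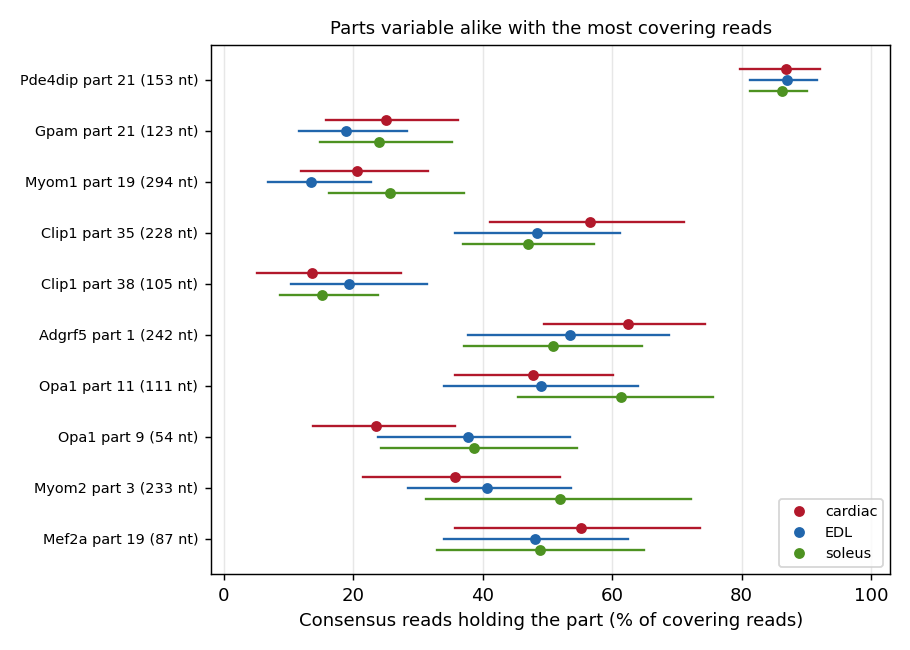
Share of covering consensus reads holding each of 10 members variable alike with the most reads (percent, x axis) in the cardiac, EDL and soleus libraries; bars are exact Clopper-Pearson 95% intervals. The 3 intervals overlap in every member, and those of Pde4dip part 21 are the narrowest.

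Transcription and chromatin regulators held 20 members in 7 genes; 10 were variable alike, none was called and none ranged over 20 points or more. Mef2a encodes a MADS-box transcription factor of muscle. Its part 19 (87 nt, chr7:67268067-67268153) was held by 16 of 29 reads in cardiac (55.2%), 25 of 52 in EDL (48.1%) and 20 of 41 in soleus (48.8%), and part 22 (132 nt, chr7:67268269-67268400) by 12, 27 and 21 of the same numbers of reads. The pairs in Mef2a, Mef2c and Ide were picked because their shares added up to 90 to 110% in each library with enough reads. In Mef2a the sums were 96.6, 100 and 100%, and each share was at 41.4 to 55.2% in every library. That such shares are near complements is therefore no result, and reads holding both parts or neither were not counted.

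In Mef2c, the related gene, parts 33 and 37 (60 and 66 nt) made a similar pair, with sums of 97.1% in EDL and 105% in soleus. Part 33 was held by 16 of 32 reads in EDL and 27 of 60 in soleus; in cardiac, with 8 reads and so outside the test, all 8 held part 33 and none part 37. Ide encodes the insulin-degrading enzyme. Its part 13 was held by 9 of 16 reads in EDL (56.2%) and 12 of 17 in soleus (70.6%), and part 14 by 7 (43.8%) and 6 (35.3%), with sums of 100 and 106%. The Ide exons were identical at 82 of 145 aligned positions (56.6%). Cardiac had 5 covering reads, of which 2 held part 13 and 3 part 14.

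Zfp106, a zinc finger protein that binds RNA, had 4 members variable alike that were all called on full-length reads. Part 36 (198 nt) was at 61.5, 58.5 and 64.3% on consensus reads and at 20.3, 48.1 and 36.5% on full-length reads. Other members variable alike lay in Map4, a microtubule-binding protein, whose part 32 (93 nt) was at 71.4, 63.2 and 66.0%, and in Mbnl1, a splicing regulator, whose part 44 (95 nt) was at 77.3, 81.0 and 79.3%. Neither was called on full-length reads.

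Some genes gave many members through a few reads that lacked a long stretch. The 548 members fell into 429 runs, in which each member was within 5 points of the member before it in every library with at least 10 covering reads; a whole run can span more than 5 points. Myh1, the fast IIx myosin heavy chain, had 26 members, the most of any gene; in its longest run 19 members were lacking from 7 to 9 reads in EDL and 3 to 5 in soleus, with shares of 91.7 to 97.2%. Myh1 lies beside near-identical myosin genes and these members are uncertain. Other long runs were 9 members of Flnc (filamin C), 9 of Pde4dip, 8 of Son and 7 of Amot. The run in Son, a splicing cofactor, was lacking from 3 reads in cardiac, 3 in EDL and 4 in soleus. Of the 226 genes, 107 had a single member and 69 had 3 or more. Exons of another gene, on the same or the opposite strand, overlapped 15 members, and the gene of origin of their reads was not checked.

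At the limits of the rule, Eif4g1 part 72 (3 of 60 reads pooled) and Etl4 part 51 (2 of 40) lay just inside 5%, and Bclaf1 part 16 (4.88%) and Sox6 part 16 (4.82%) just outside. Dag1 part 11 and Dgkd part 39 (76 of 80 reads each) lay just inside 95%, and Myh1 part 13 (95.02%) and Myh4 part 5 (95.1%) just outside. Of the 548 members, 42 were in the list that the authors kept after their check by eye and 8 in the list they removed.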

How the data were processed

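Iso-Seq was run on 1 library of each muscle. Consensus reads on mm10 were counted per gene with htseq-count, per the authors' deposited protocol, and 686 genes were split into exonic parts, for which the authors deposited counts of the consensus and full-length reads that cover and hold each part. The deposited fraction is the holding over the covering reads; it was recomputed here as a percent from the counts. STAR 2.5.0am is named in the submitters' processing notes. Deposited starts count from 0 and are printed counting from 1.

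Members and gene lists were chosen with earlier results of these data known. Parts were placed on GENCODE M21 exons by position, and 534 of 548 members matched by gene name. Two-sided exact tests, Newcombe and Clopper-Pearson 95% intervals were computed with Python 3.11.15 and SciPy 1.17.1, and tested on simulated data. Intervals cover counting error only. Named were all called members, the 12 alike members with most reads and shares of 10 to 90%, members at the limits of the rule, and members of genes in the lists or with at least 3 members; others are said to be chosen after their values were seen. Aligned positions come from pairwise alignment with Biopython 1.88. Per library, 8.64 to 9.78% of consensus reads fell in no single gene and stayed out. Some members are not reported here by name.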

Additional observations from a re-analysis of the deposited data

How the results depend on the processing

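Phka1 part 17, Phldb1 part 22, Ppp1r12b part 9 and Svil part 24 were called under every alternative that could test them. Many alternatives kept the reads and p-values of the main test and changed only the set of members or the size limit. These were the other pooled share rules, the other smallest differences, parts removed by eye left out and internal parts only. They are no further test of a call. Full-length reads share the exon calls of the consensus reads. For Ppp1r12b part 9, the cardiac library, with 19 reads, dropped out at a minimum of 20 or 30 covering reads. Those calls rested on EDL and soleus, 34.2 points apart (exact test, adjusted p = 0.043 and 0.0257). The difference of this part from cardiac was not tested there. Svil part 30 was not called on full-length reads (10.4 points) or with a smallest difference of 30 points (20.4 points). With at least 20 covering reads the cardiac library, with 16 and 19 reads, drops out for Amotl1 part 18 and Mpdz part 40; EDL and soleus then differed by 30.5 and 0.308 points and neither was called (exact test, adjusted p = 0.0748 and 1), so 5 of the 7 were still called. Counts of called members follow for all 3 libraries, cardiac with EDL, cardiac with soleus and EDL with soleus, where the counts above are 7, 6, 4 and 1. They were 52, 30, 19 and 17 on full-length reads. With at least 30 covering reads the pairs gave 3, 1 and 2, and with at least 20 cardiac with soleus gave 1 and EDL with soleus 2. Without parts that reach a first or last exon, the first 3 counts were 3, 3 and 1. Adjusted over the parts of the whole table with a pooled share of 5 to 95%, chosen after seeing the data, they were 15, 10, 9 and 2. Among these alternatives, the share of all parts called was computed for full-length reads in 3 libraries only. The other counts do not compare members with other parts. Members variable alike, 122 above, numbered 62 on full-length reads (49 of them shared), 17 and 43 with at least 30 and 20 covering reads, 53 with a range under 10 points and 49 without first and last exons. The stricter limits cover fewer members; for the full-length reads the cause was not tested. Other alternatives (pooled shares of 10 to 90%, the mean of the libraries, runs counted once, parts removed by eye left out) moved each count by at most 1.5 times. No paired analysis was possible because each muscle had 1 library, and for the same reason no replicate could be left out. Depth limits these results: a member was covered by a median of 46 consensus reads over the 3 libraries together.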
